A study of Caenorhabditis elegans with 2 samples.

Results

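The ceh genes are the protein-coding genes of Caenorhabditis elegans whose names start with ceh-, for C. elegans homeobox, and the Ensembl annotation used here lists 63 of them on the nuclear chromosomes among 19973 protein-coding genes. They were chosen by name alone. A DMD-4 region was given to a ceh gene when its summit, the position of its highest signal, fell inside the gene body or in its promoter window, which reaches 2000 bp before and 500 bp past each annotated start site. By this rule 26 ceh genes held 42 of the 11281 candidate regions that the authors called on both replicates together, and 1 of them, ceh-38, held 1 of the 212 regions that passed the irreproducible discovery rate threshold (IDR peaks). The regions come from chromatin immunoprecipitation followed by sequencing against DMD-4 in whole L2 larvae, sexes pooled, of strain OP418, which carries the mutation unc-119(tm4063) III and the transgene wgIs418 with a C-terminal GFP-FLAG tag on DMD-4. There was 1 group with 2 biological replicates of this strain, so no value here compares conditions. Nothing beyond the word biological says how separate the replicates were. The strain expresses the tagged protein from a transgene, and signal from all cells of the larva is summed.

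Homeobox genes encode transcription factors that bind DNA through a homeodomain, and in worms many of them fix the identity of single neuron classes and keep it throughout life. The ceh genes belong to several families with vertebrate counterparts, among them the CUT, POU, LIM, sine oculis, paired-like, NK and Pbx families and the Hox gene ceh-13. DMD-4 is a DM-domain protein of the family of insect Doublesex and worm MAB-3, and is known in worms from neurons that both sexes share.

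The summits of the strongest ceh regions are shown first, because most later values refer to them. Each sequence gives 201 bases of the ce11 assembly, from RefSeq, on the strand of the ceh gene, with the summit at base 101. The first 5 are the strongest regions that overlapped a region of each replicate, and the last, in ceh-37, is the strongest ceh region with a DM-domain core. Capitals mark matches to the DM-domain core ACAATGT, to TGTTGC, the MAB-3 core, or to the 7-mer GCAGGGA, on either strand. No sequence shown holds more than 1 match.
ceh-38 promoter, II:6951486-6951686, plus strand: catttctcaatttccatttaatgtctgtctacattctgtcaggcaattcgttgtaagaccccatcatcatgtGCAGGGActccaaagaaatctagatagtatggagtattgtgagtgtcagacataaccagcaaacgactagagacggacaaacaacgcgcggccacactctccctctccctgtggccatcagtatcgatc
ceh-36 intron, X:14185734-14185934, minus strand: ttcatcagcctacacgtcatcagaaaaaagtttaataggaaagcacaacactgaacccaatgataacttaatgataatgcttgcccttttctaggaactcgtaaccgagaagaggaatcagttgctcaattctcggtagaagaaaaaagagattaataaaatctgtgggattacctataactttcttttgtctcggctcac
ceh-62 promoter, II:10805892-10806092, plus strand: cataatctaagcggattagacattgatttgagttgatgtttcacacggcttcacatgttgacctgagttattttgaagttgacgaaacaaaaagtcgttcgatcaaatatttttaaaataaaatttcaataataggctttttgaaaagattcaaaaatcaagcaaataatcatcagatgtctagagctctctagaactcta
ceh-23 promoter, III:7837984-7838184, plus strand: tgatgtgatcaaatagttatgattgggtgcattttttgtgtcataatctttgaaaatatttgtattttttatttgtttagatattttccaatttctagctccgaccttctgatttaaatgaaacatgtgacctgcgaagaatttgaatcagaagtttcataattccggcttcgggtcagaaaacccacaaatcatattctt
ceh-54 promoter, X:6195359-6195559, minus strand: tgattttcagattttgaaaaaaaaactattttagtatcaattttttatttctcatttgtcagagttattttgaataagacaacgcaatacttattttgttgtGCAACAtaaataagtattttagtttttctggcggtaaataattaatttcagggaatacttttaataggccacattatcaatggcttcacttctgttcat
ceh-37 intron, X:14203906-14204106, minus strand: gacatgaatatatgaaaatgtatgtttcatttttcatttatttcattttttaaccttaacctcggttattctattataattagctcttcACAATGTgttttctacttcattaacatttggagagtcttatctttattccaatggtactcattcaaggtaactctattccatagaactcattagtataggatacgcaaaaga
The windows of ceh-36, ceh-62 and ceh-23 held none of the 3 motifs.

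ceh-38, an ONECUT gene of the CUT family with broad expression, carried the strongest region of the set. The region at II:6951411-6951760 had a signal of 57.5 in the pooled list, where the signal is the authors' enrichment value per region, on a scale that no source used here states. The overlapping region of replicate 1 had a signal of 22.9 and that of replicate 2 a signal of 36, and a weaker region of replicate 2 (13) overlapped it too. It ranked 138 in the pooled list, 353 in the list of replicate 1 and 94 in that of replicate 2, so the region stood higher among the regions of replicate 2. Its summit lay 33 bp upstream of the nearest of the 11 annotated start sites of ceh-38 (WBGene00000459, II:6951526-6955409) and 60 bp downstream of the outermost. It also lay 286 bp upstream of malt-1, the paracaspase gene, which runs in the opposite direction, so the summit lay in the promoter windows of both genes. The GC content around its summit was 45.8%, the highest of the 42 ceh regions, whose median was 29.6%. The nuclear IDR peaks had a median of 38.8%, and the nuclear candidate regions outside the set 30.3%.

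A further pair of ceh-38 regions was weaker. The summit at II:6949374-6949723 lay 1977 bp upstream, just inside the window, with a signal of 25.1; it was inside an exon of malt-1 and overlapped a region of replicate 1 (signal 9.9) and none of replicate 2. The region at II:6954939-6955288 lay in an exon near the end of ceh-38 with a signal of 13.6, and its nearest start site, 1857 bp away, was that of tra-2, the membrane receptor gene of sex determination. Replicate 1 had 9.7 there and replicate 2 had 7.8.

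ceh-36, an Otx family gene of the AWC and ASE sensory neurons, had the second strongest region, just below the IDR peaks. The pooled list gave 44.4 for the region at X:14185659-14186008, replicate 1 gave 25.7 and replicate 2 gave 18.4, and it ranked 233 in the pooled list. The lowest signal of any IDR peak was 46.4. Its summit lay in an intron of 866 bp, 732 bp downstream of the start site and past the end of the promoter window. Upstream of the same gene, at X:14187167-14187516, a region with a summit 776 bp from the start site had a pooled signal of 21.1 and 19.9 in replicate 2, but overlapped no region of replicate 1. The GC content was 37.3% at the intronic summit.

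ceh-37, the Otx family gene of the AWB sensory neuron, lies 10.8 kb from ceh-36 and held a promoter and an intronic region. The promoter summit lay 1071 bp upstream of its start (X:14208896-14209245), with 20.2 in the pooled list, 8.8 in replicate 1 and 11.1 in replicate 2. Inside its intron of 8080 bp, the region at X:14203831-14204180 had 18.5 in the pooled list and 14.4 in replicate 1, and overlapped no region of replicate 2. It was thus seen in a single replicate, like the upstream region of ceh-36.

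ceh-36 and ceh-37 are part of a stretch of 70.1 kb that also holds the ceh genes ceh-89 and ceh-90. All 4 had a pooled region, where 40.7% of all protein-coding genes on X had one. The stretch, X:14139946-14210000, held 20 pooled regions, or 285 per Mb, against 137 per Mb over the whole of X. Of these, 6 fell to the 4 ceh genes. The list of replicate 1 had 21 regions there and that of replicate 2 had 23. Past the end of ceh-36, 3.874 kb from its start site, lay a region with a signal of 28.13 that the rule gave to no ceh gene. ceh-90 had a summit 1569 bp upstream of its start with a pooled signal of 15.3 and 17.8 in replicate 2, and ceh-89 an intronic one with 14.8. The stretch was picked after its positions were seen, so its density and its count of genes with a region are descriptions. Another stretch with neighbouring ceh genes, the 87.7 kb of ceh-99 and ceh-100, held 57 regions per Mb, against 92.3 per Mb over chromosome II. On the same chromosome, the 8.01 kb of ceh-57 and ceh-58 held 499 per Mb, from 4 regions.

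**Figure D1:**
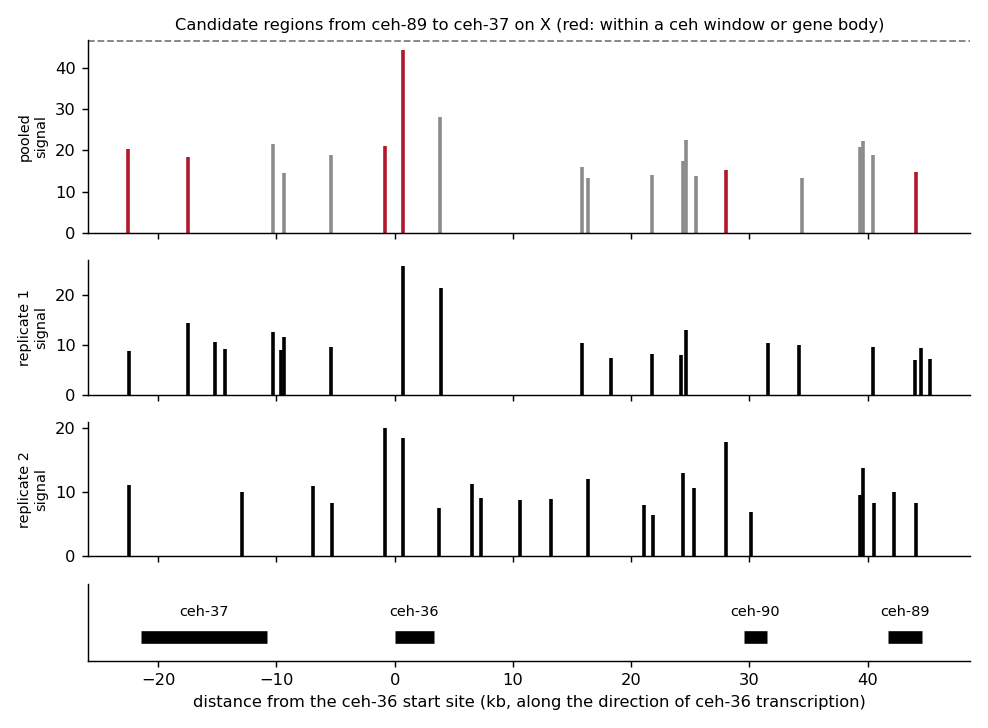
Candidate regions along the stretch from ceh-89 to ceh-37 on X, by distance in kb from the ceh-36 start site; line height is the authors' signal in the pooled list and in each replicate, red lines are regions given to a ceh gene, and the dashed line is the lowest signal of an IDR peak (46.4). The intronic ceh-36 region (44.4) is the tallest pooled line and stays under the dashed line.

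ceh-62 carried the next strongest region. At II:10805817-10806166 the pooled list gave 35.9, replicate 1 gave 22.3 and replicate 2 gave 15.2, and the summit lay 255 bp downstream of the single annotated start site. A weaker region at II:10806930-10807279 lay in an intron of 1591 bp, with 19.6 in the pooled list and 14.2 in replicate 2, and had no counterpart in replicate 1. In replicate 1 the leading ceh region was the intronic one of ceh-36 (25.7, rank 258), and in replicate 2 it was that of ceh-38, so the replicates put different ceh genes first.

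Below these 3 regions no ceh signal passed 25.2, and the lowest value that the pooled list holds is 13. The next pooled signals were 25.2 in an intron of ceh-100, 25.1 at ceh-38, 24.4 at ceh-23 and 24.1 at ceh-54. Of the 42 ceh regions, 12 (28.6%) had a pooled signal of at least 20, against 26.9% of the other nuclear candidate regions. The median was 16.4 for ceh regions, with quartiles of 14.8 and 20.9, and 16.6 for the others, with quartiles of 14.5 and 20.4. The quartile ranges overlapped almost whole.

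**Figure D2:**
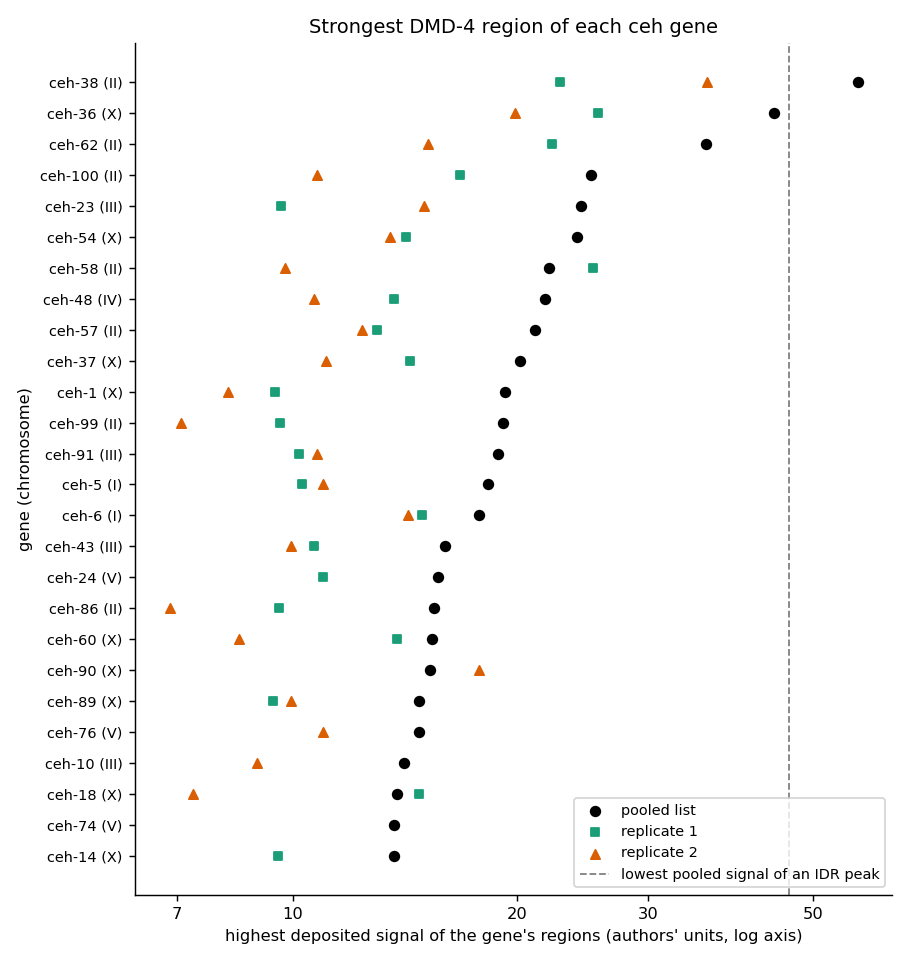
Highest deposited signal of any region of each of the 26 ceh genes with a pooled region, in the pooled list and in each replicate's list (log axis, authors' units; a missing symbol means no region in that list); the dashed line is the lowest pooled signal of an IDR peak. ceh-38 alone lies to its right (57.5), followed by ceh-36 (44.4) and ceh-62 (35.9).

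Replicate support was like that of other candidate regions. Of the 42 pooled ceh regions, 16 (38.1%) overlapped a region of each replicate by at least 1 bp, 12 overlapped replicate 1 alone, 12 replicate 2 alone and 2 neither. Among the other nuclear regions 39.1% overlapped both. The 16 belonged to 14 of the 63 ceh genes, and 3224 of all 19973 nuclear protein-coding genes had such a region. These 16 were 10 promoter, 4 intronic and 2 exonic regions, 5 on X and 11 on autosomes. The 2 supported by neither replicate were a promoter region of ceh-57 (14.4) and an intronic region of ceh-74 (13.7).

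Among the genes of the CUT family, ceh-48, which has pan-neuronal expression, had a pair of overlapping promoter regions with pooled signals of 21.8 and 16.6, at summits 1108 and 907 bp upstream. Replicate 1 had regions with summits 1155 bp (13.7) and 912 bp (8.3) upstream, and replicate 2 had 1 region, 955 bp upstream (10.7), which overlapped both pooled regions. ceh-39, an X signal element of sex determination, had no pooled region by the rule; a summit 2370 bp upstream of it had a signal of 15.5. Of the 6 CUT genes listed, 2 had a pooled region, where 33.9% of all protein-coding genes had one.

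Of the 8 paired-like genes 4 had a pooled region (ceh-36, ceh-37, ceh-54 and ceh-10), again beside 33.9% of all genes. At ceh-54 the summit lay 1218 bp upstream, and its signal was 24.1 in the pooled list, 14.2 in replicate 1 and 13.5 in replicate 2. This position was also 1468 bp upstream of daf-9, the cytochrome P450 gene that makes the steroid hormone of the dauer decision. ceh-10, a Chx10 family gene needed for CAN and AIY neurons, had a promoter region with a pooled signal of 14.1 and 8.96 in replicate 2, and none in replicate 1.

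Of the 16 NK and related genes 5 had a pooled region, near the 33.9% of all genes. ceh-23, a Distal-less-like gene of sensory and AIY neurons, had a promoter region 1508 bp upstream with 24.4 in the pooled list, 9.6 in replicate 1 and 11.8 in replicate 2, and a weak intronic one (13.4). At ceh-1 a promoter region had 19.3 in the pooled list, 9.5 in replicate 1 and 8.2 in replicate 2. ceh-5, of the Vax family, had 18.3, with 10.3 in replicate 1 and 11 in replicate 2. ceh-43, the Distal-less gene of dopaminergic neurons and head epidermis, had an intronic region with 16, and ceh-24, an NK2 gene of the pharynx, vulval muscle and head neurons, a region 1888 bp upstream with 15.7; each was found in a single replicate.

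Both POU genes had pooled regions in a promoter window, where 33.9% of all protein-coding genes had a pooled region of any class. ceh-6, needed for the excretory canal cell, had a region with a pooled signal of 17.8 at 843 bp upstream, seen in replicate 2 (14.3), and another with 15.2 at 164 bp upstream, seen in replicate 1 (14.9). ceh-18, of the gonadal sheath cells, had a region with 13.8, and 14.8 in replicate 1, that overlapped no region of replicate 2. Its summit lay 330 bp upstream of an internal start site and 1101 bp downstream of the outermost. Among the Pbx (TALE) genes ceh-60, which promotes vitellogenin expression, had 4 pooled regions, 3 intronic and 1 exonic, with signals from 13.4 to 15.4. None of the 4 overlapped regions of both replicates. For the exonic region and the intronic one with a signal of 15, the nearest start site was that of ets-4. The LIM gene ceh-14, of the AFD thermosensory neuron, had 1 intronic region with 13.7, and the sine oculis family genes ceh-32, ceh-33 and ceh-34 and the Hox gene ceh-13 had no pooled region.

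Among genes without a family assigned here, ceh-100 held 4 intronic regions, as many as ceh-60, with signals of 25.2, 18.3, 16.3 and 15.5. They lay from 12212 to 19800 bp downstream of its start site, each in an intron of 973 to 1363 bp of its own. The nearest start site of all 4 was that of clec-4, from 2767 to 10355 bp away. Each region overlapped the list of a single replicate, 2 in replicate 1 and 2 in replicate 2. The GC content around these summits was 14.9%, 21.9%, 17.4% and 23.4%, below the median of the candidate list. ceh-57 held 3 regions, led by an exonic one (21.2, with 13 in replicate 1 and 10.7 in replicate 2), and its neighbour ceh-58 had a promoter region of 22.1 with 25.3 in replicate 1 and none overlapping it in replicate 2. The 8.01 kb that ceh-57 and ceh-58 span with their windows held 4 pooled regions. By the rule, any region there falls to these genes. ceh-91 had an intronic region with 18.9, with 10.2 in replicate 1 and 10.8 in replicate 2, at a GC content of 15.4%. ceh-99 had a promoter summit with 19.2, with 9.6 and 7.1 in replicates 1 and 2, whose nearest start site was that of the chemoreceptor gene srh-70. The gene ceh-86 had an intronic region with 15.5, and ceh-76 a promoter one with 14.8 whose nearest start site was that of Y97E10AR.2.

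The share of ceh genes with a region was set against that of all protein-coding genes. A pooled region was found at 26 of 63 ceh genes (41.3%, 95% exact binomial interval 29% to 54.4%) and at 33.9% of all 19973 nuclear protein-coding genes. In the list of replicate 1 it was 32 of 63 (50.8%), against 47.8% of all genes, and in that of replicate 2 it was 33 of 63 (52.4%), against 49.8%. An IDR peak was found at 1 of 63 (1.59%, exact interval 0.0402% to 8.53%), against 1.17% of all genes. Each share of all genes lay inside the interval of the ceh genes. The windows of ceh genes were longer, with a median of 4652 bp against 4028 bp for all genes. Per length they held 124 pooled regions per Mb, against 108 per Mb in the windows of all genes, and 28.6% of ceh genes lie on X, against 13.7% of all genes. The part that length and X linkage play in the share was not tested.

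The other homeobox genes were compared as a list of 38 whose names do not start with ceh-, such as the Hox genes lin-39, mab-5 and egl-5. Of these, 17 (44.7%, exact interval 28.6% to 61.7%) had a pooled region, against 33.9% of all genes, and 0 had an IDR peak. In replicate 1, 26 (68.4%, exact interval 51.3% to 82.5%) had a region, against 47.8% of all genes, a share outside the interval, and in replicate 2, 25 (65.8%, exact interval 48.6% to 80.4%), against 49.8%, a share inside it. Their strongest pooled regions were in an intron of dsc-1 (22.7), upstream of the LIM gene lin-11 (22.4), upstream of the Otx gene ttx-1 (21.8) and in an intron of lin-39 (20). None of the 17 genes reached the signal of the ceh-38, ceh-36 or ceh-62 regions.

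**Figure D3:**
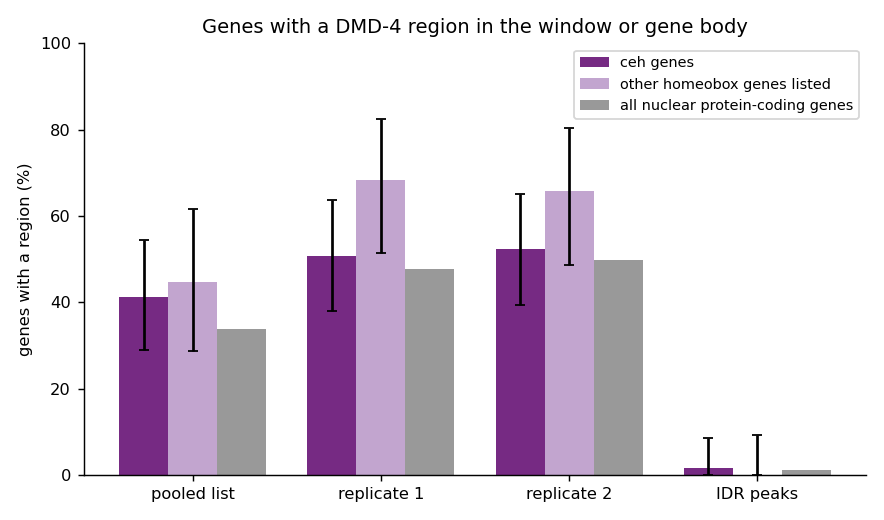
Share of genes (%) with a DMD-4 region in the window or gene body, in the pooled list, each replicate's list and the IDR peaks, for the 63 ceh genes, the 38 other homeobox genes listed and all 19973 nuclear protein-coding genes; bars on the first 2 are 95% exact binomial intervals. In the pooled list the shares are 41.3%, 44.7% and 33.9%.

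Promoter regions were the largest class at ceh genes, followed by introns. Of the 42 pooled regions, 22 (52.4%, exact interval 36.4% to 68%) were in a promoter window, 17 (40.5%) in an intron and 3 (7.14%) in an exon. For 31 of the 42 the nearest start site of any gene was that of the ceh gene, and the share for other genes is not given. When every region was set against the starts and body of each gene it fell to, the pairs with other genes were 63.3% promoter and 26.1% intronic. The gap was smaller in the replicate lists. In replicate 1, 54.2% of ceh regions were promoter and 28.8% intronic, against 61.4% and 26.1% of pairs with other genes, and in replicate 2 it was 58.6% and 27.6%, against 60.8% and 25.3%. The promoter share of other genes lay inside the exact interval of the ceh genes in all 3 lists, and no test of the difference was made.

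Promoter summits of ceh genes had a median distance to the start site of 989 bp in the pooled list, 726.5 bp in replicate 1 and 817 bp in replicate 2. For promoter pairs of other genes the medians were 580, 592 and 597 bp. Of the 22 pooled ceh ones, 20 lay upstream of the nearest start site, against 5903 of 7022 promoter pairs of other genes. More than 700 bp upstream lay 16 (72.7%), against 43.8% of pairs of other genes. Within 500 bp lay 6 (27.3%, exact interval 10.7% to 50.2%), against 46%. In replicate 1, 14 of 32 (43.8%) lay within 500 bp, against 45.8%, and 16 of 32 (50%) more than 700 bp upstream, against 44%. In replicate 2, 12 of 34 (35.3%) lay within 500 bp, against 45.3%, and 21 of 34 (61.8%) more than 700 bp upstream, against 45%. The share of other genes within 500 bp lay inside the exact interval of the ceh genes in all 3 lists. No interval is given for the share more than 700 bp upstream, and neither difference was tested. The 6 pooled summits within 500 bp belonged to ceh-38, ceh-62, ceh-57, ceh-6 and ceh-18. Just inside the window edge lay the summits at 1977 bp from ceh-38, 1888 bp from ceh-24 and 1847 bp from ceh-99, and just outside it those at 2062 bp from ceh-20 (signal 15), 2073 bp from ceh-34 (17.5) and 2117 bp from ceh-23 (18.3). Many worm transcripts are trans-spliced, so an annotated start can lie downstream of where transcription begins.

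**Figure D4:**
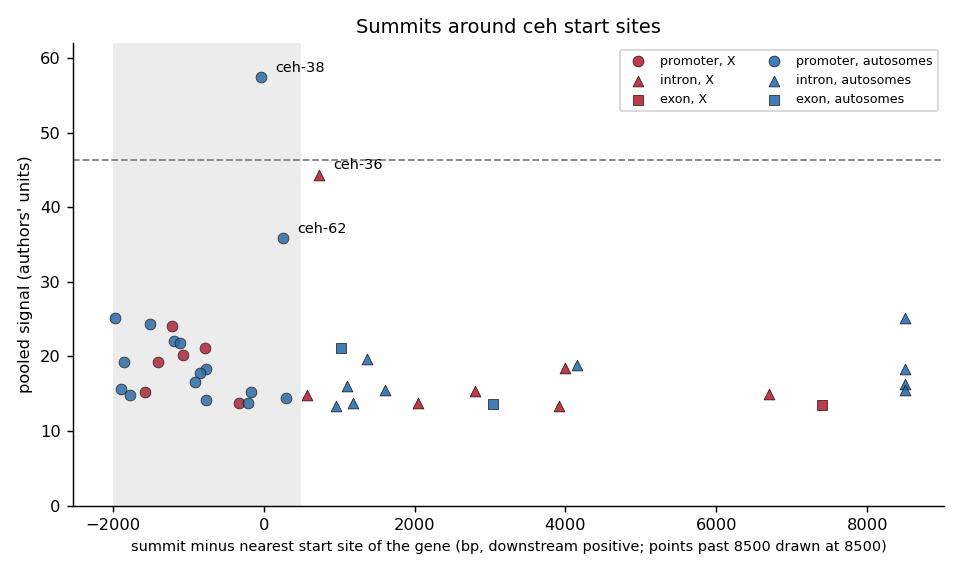
Pooled signal (authors' units) of the 42 ceh regions against the distance of the summit from the nearest start site of the gene (bp); grey marks the promoter window, the dashed line the lowest signal of an IDR peak, red X and blue autosomes. ceh-38 (57.5) and ceh-62 (35.9) lie close to the start, ceh-36 (44.4) just past the window, and most other promoter summits over 700 bp upstream; the 4 intronic regions of ceh-100 are drawn at the right edge.

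A difference between X-linked and autosomal ceh genes was not detectable at this number of genes. Of the 18 on X, 9 had a pooled region, and of the 45 on autosomes 17 had one (odds ratio 1.65 with a 95% interval of 0.471 to 5.72; p = 0.408 by a two-sided exact test of Fisher, and 0.497 adjusted for the 2 tests made). Among all genes the shares were 40.7% on X and 32.8% on autosomes. By replicate, 11 ceh genes on X and 21 on autosomes had a region in replicate 1, and 10 and 23 in replicate 2. X carried 14 of the 42 regions (33.3%), against 21.5% of the other nuclear regions, while per Mb of window the density at ceh genes was 133 on X and 119 on autosomes, against 125 on X and 105 on autosomes for all genes. By chromosome, a pooled region was found at 9 of 18 ceh genes on X, 7 of 13 on II, 4 of 8 on III, 3 of 12 on V, 2 of 8 on I and 1 of 4 on IV. Shares of all genes are not given for single autosomes or, by replicate, for X and autosomes. The counts by chromosome and by replicate are therefore descriptions and no trait of ceh genes.

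The balance of promoter and intronic regions did not pass the test of X against autosomes. X had 6 promoter and 7 intronic ceh regions, and the autosomes had 16 and 10 (odds ratio 0.536 with a 95% interval of 0.113 to 2.52; p = 0.497 by the same exact test, before and after adjustment). In replicate 1 it was 15 and 9 on X and 17 and 8 on autosomes (odds ratio 0.784), and in replicate 2 it was 8 and 7 on X and 26 and 9 on autosomes (odds ratio 0.396). The exact test counts regions of the same gene as independent, and the 7 intronic regions on X came from ceh-36, ceh-37, ceh-60, ceh-89 and ceh-14. At this number of regions an odds ratio anywhere from 0.113 to 2.52 was within the interval. Regions of other genes had promoter shares of 63% on X and 64% on autosomes. Such a region counted as promoter if it lay in the promoter window of any gene. The ceh regions were classed by the ceh gene alone, so the shares are not the same measure.

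Signal by class followed the same few genes. The 6 promoter regions on X had a median signal of 19.8 and reached 24.1 at ceh-54, and the 16 on autosomes a median of 18 and 57.5 at ceh-38. The 7 intronic regions on X had a median of 15 and reached 44.4 at ceh-36, and the 10 on autosomes a median of 16.1 and 25.2 at ceh-100. After ceh-36, the strongest intronic regions on X were those of ceh-37 (18.5) and ceh-60 (15.4), and on autosomes, after ceh-100, those of ceh-62 (19.6) and ceh-91 (18.9). For other genes the medians were 16.9 and 17 in promoters on X and autosomes, and 16.6 and 16.1 in introns. Their regions again counted as promoter if in the promoter window of any gene. The ranges of the 4 ceh classes overlapped.

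**Figure D5:**
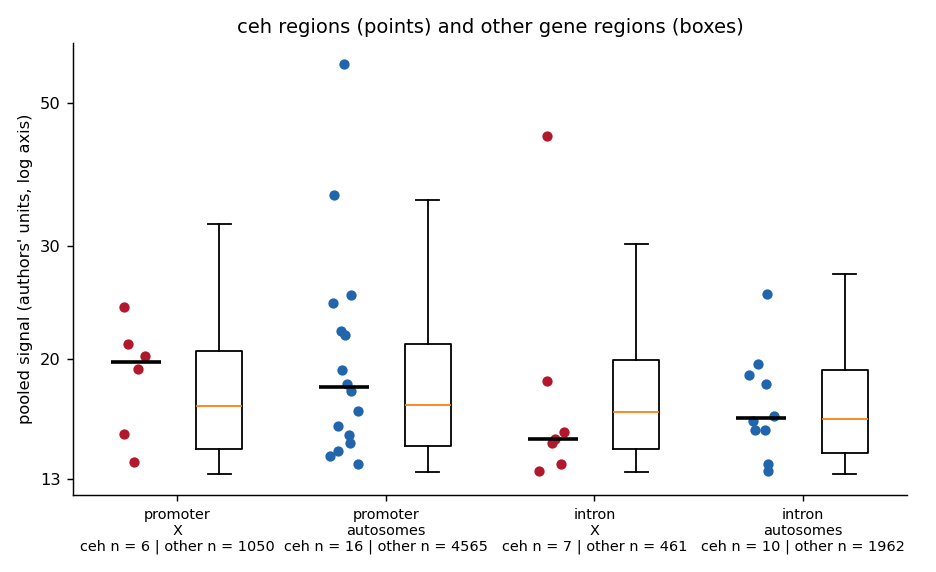
Pooled signal (authors' units, log axis) of ceh regions (points, with a bar at the median) beside regions of other genes (boxes for quartiles, orange line for the median, whiskers from the 5th to the 95th percentile), in promoters and introns, on X and autosomes. The ceh medians are 19.8, 18, 15 and 16.1 from left to right, and ceh-38, ceh-62 and ceh-36 lie above the whiskers of their classes. Regions of other genes count as promoter if in the promoter window of any gene, and ceh regions are classed by the ceh gene alone.

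The short sequences that DM-domain proteins are known to bind were found at few ceh regions, and neither ACAATGT nor TGTTGC at the regions of ceh-38, ceh-36 or ceh-62 with the highest signals. Within 100 bp of the summit, on either strand, ACAATGT occurred in 4 of 42 regions (9.52%, exact interval 2.66% to 22.6%), against 3.33% of the other nuclear candidate regions and 3.35% of all of them. The 4 were the intronic ceh-37 region shown above (18.5) and regions of ceh-57 (14.4), ceh-18 (13.8) and ceh-74 (13.7). None of the 4 overlapped a region of both replicates. TGTTGC occurred in 4 of 42 (9.52%), against 7.78% of the others and 7.78% of all, at ceh-54 (24.1), in the promoter region of ceh-36 (21.1), at ceh-24 (15.7) and in an intron of ceh-60 (15.4). GCAGGGA occurred at ceh-38 alone, against 0.696% of the other regions, 0.702% of all and 11.4% of nuclear IDR peaks. That 7-mer came from an earlier search over IDR peaks that included the ceh-38 region, so its presence there is no independent result.

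Candidate regions of the pooled list were not found at 37 of the 63 ceh genes, and 19 of these had no region in any list. Of all protein-coding genes, 33.9% had a pooled region, 47.8% a region in replicate 1 and 49.8% a region in replicate 2. The share of all genes with no region in any list was not computed. The 19 include ceh-13, the anterior Hox gene of the labial family; ceh-12, the Mnx gene of ventral cord motor neurons; ceh-16, the Engrailed gene of the seam cells; ceh-17, the Phox2 gene of ALA and SIA neurons; and ceh-30, the BarH gene that protects the male CEM neurons from death. A pooled summit with a signal of 14.4 lay 2484 bp upstream of ceh-30, past the window edge. In whole larvae a factor bound in few cells and a factor not bound cannot be told apart. The windows of ceh genes with a pooled region had a median length of 5326 bp, against 4299 bp for those without, and over all genes the medians were 4863 bp with a region and 3768 bp without.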

How the data were processed

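The files are ChIP-seq region lists of DMD-4 from 2 biological replicates, numbered as in the labels. Per the deposited file descriptions, candidate regions were called on ce11 alignments of each replicate, and of both together (the pooled list), with a control, and the IDR peaks were derived from these lists. No source used here states the caller, its version or the IDR threshold. The signal is the authors' deposited enrichment per region, of unknown scale; it was used to describe and rank regions within a list. The candidate lists include weak regions, which the IDR step takes as input. Depth is unknown because no reads were used here, and the intervals cover counting error only.

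Coordinates are 1-based in ce11, the same sequence as WBcel235, with genes of Ensembl release 115. The summit is the deposited offset within the region, and in 99.7% of pooled regions it is the middle of the region. A summit in a promoter window (2000 bp before to 500 bp after an annotated start site) counted as promoter, otherwise as exon or intron. Shares carry exact Clopper-Pearson intervals at 95%, and 2 comparisons of X with autosomes used two-sided Fisher's exact tests with Benjamini-Hochberg adjustment at 0.05. The gene was the unit for genes with a region. For promoter against intron the unit was the region, and regions were taken as independent. With 1 group, the p-values concern only counts of genes or regions on X and on autosomes, and compare no biological condition.

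The rule for naming was ceh genes with an IDR peak, up to 20 by signal with a region in each replicate (14 qualified), up to 5 with the most regions, and the 3 strongest promoter and intronic regions on X and autosomes; other genes were added for their family. Members and lists were chosen with earlier results of these data known. The assignment was tested on planted summits. The ce10 lists were not used. Analyses used Python 3.11.15, numpy 2.4.6, pandas 2.3.3, scipy 1.17.1 and matplotlib 3.10.9.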

Additional observations from a re-analysis of the deposited data

How the results depend on the processing

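The 11 alternatives concern the promoter window, start sites, regions kept, assignment and replicates. The count of ceh genes with a candidate region, 26, was 16 with a window of 500 bp upstream to 100 bp downstream. It was 15 with only regions above the median signal. With only regions overlapped in both replicates it was 14 by 1 bp and 11 by at least 50% of the region. From a single replicate it was 32 or 33. Of all 19973 genes, 3224 had a region overlapped in both replicates by 1 bp. Counts of all genes for the window, median and 50% settings are not given, so these drops are no trait of ceh genes. The promoter share, 52.4%, was 29% with a window of 1000 bp upstream to 200 bp downstream and 15.4% with the narrowest window, which is by construction. The odds ratio of genes with a region on X against autosomes, 1.65, was 0.883 with only regions above the median signal (two-sided Fisher's exact p = 1); the cause was not tested. Otherwise both odds ratios kept their side of 1 and of the threshold under all alternatives run: 1.2 to 2.46 for genes and 0.385 to 0.889 for promoter against intron (exact p from 0.147 to 1). ceh-38 had an IDR peak under all 9 alternatives for that count, which is by construction. Its summit lay 33 bp from the nearest start site, and its region had a signal of 57.5 and overlapped both replicates. No paired analysis was possible because there is 1 group. Depth is unknown, and most ceh signals lie near the lowest value of the list.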

Other observations

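Some ceh genes had regions in the replicate lists that the pooled list does not hold. Of 59 ceh regions in replicate 1, 30 overlapped no pooled region, and of 58 in replicate 2, 29 did not. The whole lists hold 17531 and 18240 regions, against 11281 in the pooled list. Their share without a pooled region was not computed, so these counts are no trait of ceh genes. The strongest of these was upstream of ceh-23 in replicate 2, 527 bp from its start, with a signal of 15. In replicate 1 the strongest was upstream of ceh-43, 601 bp from its start, with 10.7.

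ceh-33 and ceh-20 had a region in each replicate and none in the pooled list. At ceh-33, a sine oculis family gene, exonic regions with signals of 7.4 in replicate 1 and 9.98 in replicate 2 overlapped each other. At ceh-20, the Pbx-type cofactor of Hox proteins, the region of replicate 1 lay 178 bp upstream (10.5) and that of replicate 2 lay 1512 bp upstream (7.7), so they are separate places. A further 8 genes had a region in replicate 1 alone and 8 in replicate 2 alone.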
